A study of Rattus norvegicus with 16 samples.

Results

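The miR-34 family in the newborn rat heart comprised 5 of the 677 rat miRNAs on the array, chosen by name: rno-miR-34a, rno-miR-34b, rno-miR-34b*, rno-miR-34c and rno-miR-34c*. The species prefix is left out where values are not listed. The family was picked because miR-34a was already known, from these same arrays, to differ between the strains, so the strain values of its members are given as a description and without a test. Hearts came from 16 pups killed on day 2 after birth, 8 of HHR (Hypertrophic Heart Rat), the inbred strain whose heart size the labels give as enlarged, and 8 of NHR (Normal Heart Rat), labelled with hearts of ordinary size. Each strain gave 4 females and 4 males, with 1 array for every animal, no pooling and no treatment. The growth protocol speaks of whole hearts but the design text of ventricles cut from the atria, and no heart weights were analysed here. Of 7 miRNAs of heart muscle, 6 were detected on all 16 arrays, miR-1, miR-133a, miR-133b, miR-208*, miR-208b-3p and miR-499, and miR-208 on none. Between 204 and 235 miRNAs were detected per HHR array and between 200 and 239 per NHR array. Precision is limited by how many arrays there are.

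The miR-34 miRNAs are direct transcriptional targets of the tumour suppressor p53 and repress mRNAs of the cell cycle and of survival, such as those of cyclins, Bcl2 and Sirt1. miR-34a is made from a transcript of its own, whereas miR-34b and miR-34c are cut from a shared transcript and are abundant in ciliated epithelium and testis. In the mouse heart miR-34a is known to increase with age and after infarction, where it represses the phosphatase subunit gene Ppp1r10.

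A miRNA finds its targets mainly through its seed, bases 2 to 8 from the 5′ end. The mature sequences of the array miRNAs that carry the miR-34a seed are shown because they define the family and its closest relatives. They are RefSeq sequences of the GRCr8 assembly, matched by name, with the seed in capitals. An array name without an arm was taken as the 5p arm and an asterisk as the 3p arm. By this rule 556 of the 677 array names had a RefSeq entry.
miR-34a: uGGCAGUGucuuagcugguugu
miR-34b: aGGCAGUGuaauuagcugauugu
miR-34c: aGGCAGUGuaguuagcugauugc
miR-449a: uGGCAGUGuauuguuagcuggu
miR-449c-5p: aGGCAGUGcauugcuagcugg
All 5 shared the seed GGCAGUG, and no other matched array miRNA carried it. Outside the seed, miR-34b and miR-34c differed from each other by 2 single-base edits (changes, insertions or deletions), and miR-34a differed from miR-34b by 4 and from miR-34c by 5 edits. miR-449a and miR-449c-5p, which belong to a separate cluster also known from ciliated epithelium, lay 6 and 7 edits from miR-34a.

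The other arms of the same hairpins are shown because they carry different seeds, again in capitals, and are separate rows of the array.
miR-34a*: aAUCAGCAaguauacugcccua
miR-34b*: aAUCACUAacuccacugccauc
miR-34c*: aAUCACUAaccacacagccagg
miR-34b* and miR-34c* shared a seed with each other, and miR-34a* had its own. miR-34a* is no member by the rule and is described below as the partner arm of miR-34a.

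The precursor of miR-34a lay at chr5:165815952-165816053 on the plus strand of GRCr8. It overlapped an uncharacterised long non-coding RNA gene, LOC103692514. Gene overlaps are by position, without regard to strand. The hairpin is shown because both of its arms had probes on the array. The capitals mark the 5p arm (miR-34a) and the 3p arm (miR-34a*).
Mir34a hairpin: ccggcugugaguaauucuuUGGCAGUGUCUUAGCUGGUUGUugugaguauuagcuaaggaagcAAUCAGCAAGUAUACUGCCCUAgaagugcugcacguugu
The precursors of miR-34b (chr8:60306609-60306692) and miR-34c (chr8:60306091-60306167) lay on the minus strand with 441 bases between them, both overlapping the gene Hoatz. The arrays were annotated against the older rn4 build, so these positions describe the assembly and not the probes.

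Among the family only miR-34a had a clear signal in the newborn heart, and its level in HHR was close to double that in NHR. Levels are the scanner's background-subtracted signal, averaged over the spots and probes of a miRNA and scaled so that the 75th percentile of the bright probes was equal on all arrays. In HHR females, rno-miR-34a measured 125, 116, 125 and 106. In HHR males, it measured 105, 104, 105 and 119. The NHR females had 57.7, 55.4, 59.1 and 61.5. The NHR males had 58.6, 54.4, 54.5 and 64.1. The lowest HHR array, 104, lay above the highest NHR array, 64.1, so the strains did not overlap, while the sexes overlapped within each strain.

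**Figure D1:**
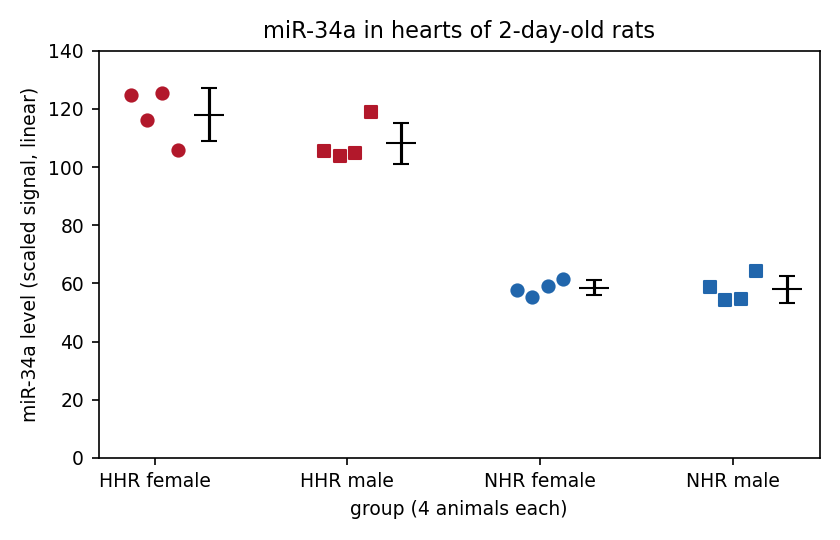
Level of miR-34a on each array (vertical axis, scaled signal on a linear scale) by sex within HHR (left) and NHR (right), with the mean and SD of the 4 animals of each group beside the points. All 8 HHR points lie between 104 and 125 and all 8 NHR points between 54.4 and 64.1.

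The HHR mean was 113 ± 9.22 and the NHR mean 58.2 ± 3.44 (SD, n = 8 each). On the log2 scale HHR exceeded NHR by 0.96 ± 0.048 (SE of the limma fit), a 1.94-fold difference. It was the most positive difference among the 233 miRNAs detected on at least 4 arrays. Across those 233 the median difference was -0.11, and relative to that median miR-34a stood at 1.06. For the background of this contrast, the strains' values did not overlap for 14.2% of the tested miRNAs, and for 3% all HHR arrays lay above all NHR arrays. By the limma test 54.5% of the tested miRNAs differed between the strains (adjusted p below 0.05), 9.01% higher and 45.5% lower in HHR, and the share was 20.6% within males and 45.1% within females. Since miR-34a was chosen for this contrast, nothing is read from these shares. In bulk heart tissue a larger share of cells with a miRNA and more of it per cell cannot be told apart.

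**Figure D2:**
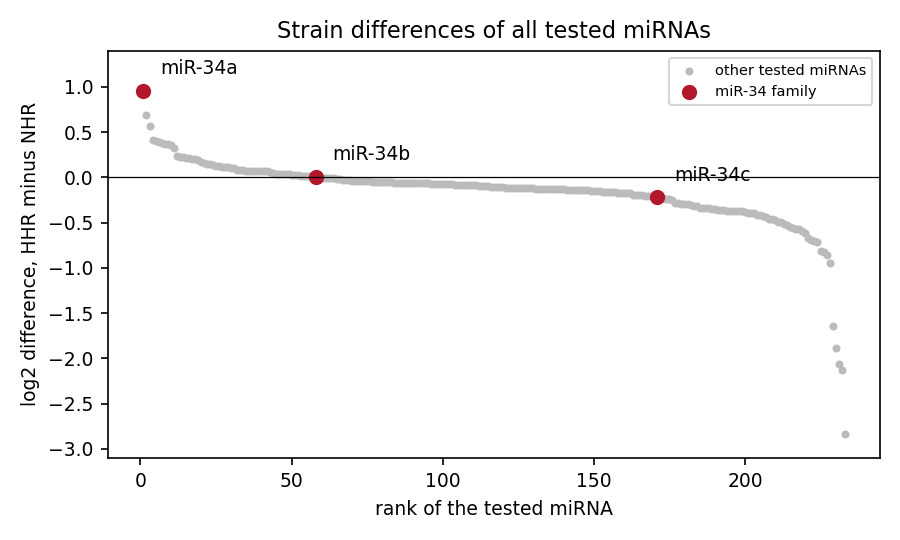
Log2 difference between HHR and NHR (vertical axis) for the 233 tested miRNAs in order of size (horizontal axis, rank), with the 3 tested members of the miR-34 family in red. miR-34a has the most positive difference, 0.96, while miR-34b (0.0061) and miR-34c (-0.22) lie within the range of the other miRNAs.

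In order of mean level, HHR females (118 ± 9.18) came before HHR males (108 ± 7.08), NHR females (58.4 ± 2.56) and NHR males (57.9 ± 4.58; SD, n = 4 each). The values of HHR females and HHR males overlapped, as did those of NHR females and NHR males, and the step lay between HHR males and NHR females. Within males the HHR excess was 0.90 ± 0.068 on the log2 scale and within females 1.01 ± 0.068 (SE). The difference between these, males minus females, was -0.11 ± 0.096 and did not pass the limma test of the interaction (adjusted p = 0.931, 95% interval -0.32 to 0.099). This test and the sex contrast were not used in choosing the family.

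Each strain was spread over 2 slides, 2 animals of every group on each. On slide 1, miR-34a averaged 113 ± 9.81 over 4 HHR hearts and 56.5 ± 1.96 over 4 NHR hearts (SD). On slide 2, it averaged 114 ± 10.1 in HHR and 59.8 ± 4.08 in NHR. The log2 difference was 0.99 within slide 1 and 0.92 within slide 2, so neither slide carried it alone.

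miR-34a was read by 2 probes of 10 spots each, both well above background on all 16 arrays. The dimmer probe, A_26_P00001279, gave 55.7 ± 4.70 over 8 HHR hearts and 28.5 ± 1.88 over 8 NHR hearts (SD). The brighter one, A_26_P00001280, gave 171 ± 13.99 in HHR and 87.8 ± 5.21 in NHR. The log2 difference was 0.96 by either probe alone. The ratio of the brighter to the dimmer probe was 3.07 ± 0.103 in HHR and 3.08 ± 0.106 in NHR, so both probes moved together. Repeat spots of a probe on one array varied with a median coefficient of variation of 8.03% (range 3.72% to 20.5% over 32 probe and array pairs).

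**Figure D3:**
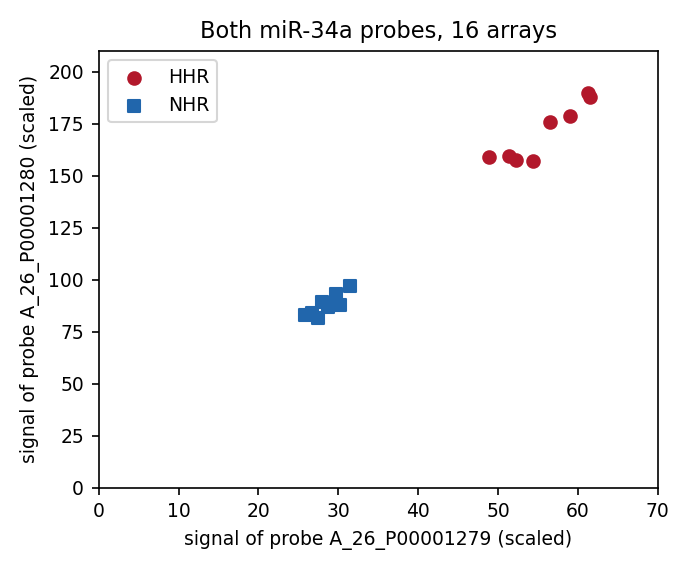
Scaled signal of the 2 miR-34a probes on the 16 arrays, the dimmer probe on the horizontal axis and the brighter on the vertical axis, both linear. The HHR arrays (48.9 to 61.5 by the dimmer probe) and the NHR arrays (25.9 to 31.4) form separate clouds along one line.

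Unscaled arrays of HHR hearts were brighter. Their 75th percentile was 469.6 ± 37.3, against 378.4 ± 87.3 for arrays of NHR hearts (SD, n = 8 each), and an exact permutation test over 12870 splits, two-sided, gave p = 0.0191. Array brightness thus moved with strain, and the miR-34a values by brightness were as follows. The 3 NHR arrays at least as bright as the dimmest HHR array (442.7 to 502.9) had miR-34a levels of 54.4 to 64.1, and the 5 dimmer NHR arrays (294.7 to 326.8) had 54.5 to 61.5. With brightness as a covariate the log2 difference was 0.93. Before any scaling miR-34a lay between 102.7 and 154.5 in HHR and between 37.9 and 70.1 in NHR, also without overlap.

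The size of the miR-34a difference depended on the processing. Over the 18 alternative settings the log2 difference was between 0.43 and 1.30, and the strains did not overlap under any of them. The floor, filter, moderation, block and covariate settings left the miR-34a values unchanged, and the within-slide settings only split them. Lack of overlap was fixed in advance under those settings. Only a change of signal, background, scaling or probe summary could alter it. miR-34a was the most positive tested miRNA under 16 of the 18. miR-34a ranked lower with the scanner's total gene signal, where 3 miRNAs were more positive, and in the authors' deposited table, where 1 was. In the authors' deposited table of log2 values, miR-34a lay between 7.34 and 7.67 on HHR arrays and between 6.71 and 7.08 on NHR arrays, a difference of 0.63.

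**Figure D4:**
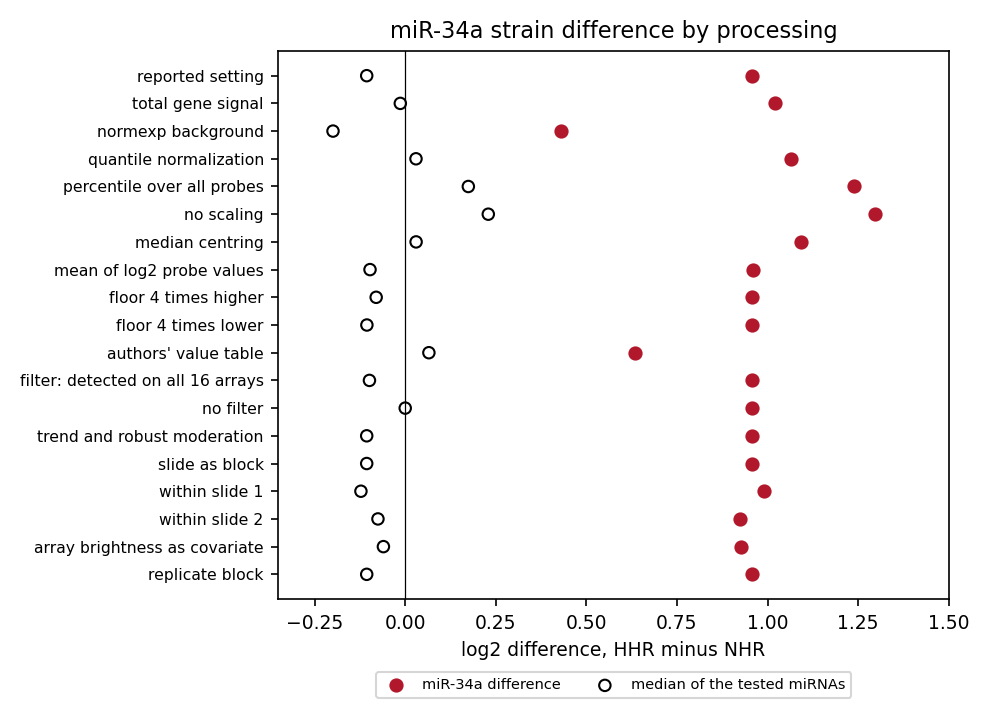
Log2 difference of miR-34a between HHR and NHR (red, horizontal axis) under the reported setting and 18 alternatives (rows), with the median difference of the miRNAs tested in each setting as open circles. The miR-34a point stays to the right of 0 in every row, from 0.43 with a normexp background to 1.30 without scaling, while the open circles change sign between settings.

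miR-34b and miR-34c, the products of the shared transcript, were at the edge of detection. No probe of either was well above background on any array, so the log2 differences given for them are fitted values of signals near background and not measured folds. rno-miR-34b measured 7.39, 8.23, 7.90 and 7.17 in HHR females, and 5.28, 6.48, 6.16 and 7.25 in HHR males. It measured 8.07, 4.94, 7.02 and 6.80 in NHR females, and 8.32, 6.94, 6.91 and 6.69 in NHR males. The strains overlapped throughout, with a mean of 6.98 ± 0.965 for HHR and 6.96 ± 1.02 for NHR (SD, n = 8 each).

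rno-miR-34c measured 5.21, 6.44, 5.29 and 5.99 in HHR females, and 3.91, 4.53, 6.64 and 5.45 in HHR males. It measured 5.93, 5.83, 6.46 and 7.95 in NHR females, and 8.38, 5.30, 6.51 and 4.54 in NHR males. Its mean was 5.43 ± 0.926 for HHR and 6.36 ± 1.28 for NHR (SD, n = 8 each), again with overlapping ranges. The log2 strain difference was 0.0061 ± 0.093 for miR-34b and -0.22 ± 0.13 for miR-34c (SE). The sign of neither was stable. miR-34b was positive under the 5 scalings compared (the 75th percentile of bright or of all probes, quantiles, medians, or none) but turned negative with a normexp background, with a higher floor and within slide 1. miR-34c turned positive with the total gene signal, no scaling, quantile normalization, a percentile over all probes and in the authors' deposited table. Of the 3 family members that carry the seed GGCAGUG, only miR-34a had values that separated the strains, and miR-34a was chosen for that. miR-34b and miR-34c lay too near background to show whether they differ.

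The scanner's own detection flag, which is less strict, was set for miR-34b on 5 HHR and 2 NHR arrays and for miR-34c on 6 HHR and 3 NHR arrays. These arrays were mostly the brighter ones. The arrays that detected miR-34b had a 75th percentile of 464.7 to 525.2 (median 497.2), and those that did not had 294.7 to 466.8 (median 326.8). For miR-34c the values were 324.7 to 525.2 with detection (median 481.9) and 294.7 to 466.8 without (median 326.8), so these ranges overlapped. The part of brightness in the detection counts was not tested. miR-34b was flagged in 4 of 4 HHR females against 1 of 4 arrays in each of HHR males, NHR females and NHR males.

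**Figure D5:**
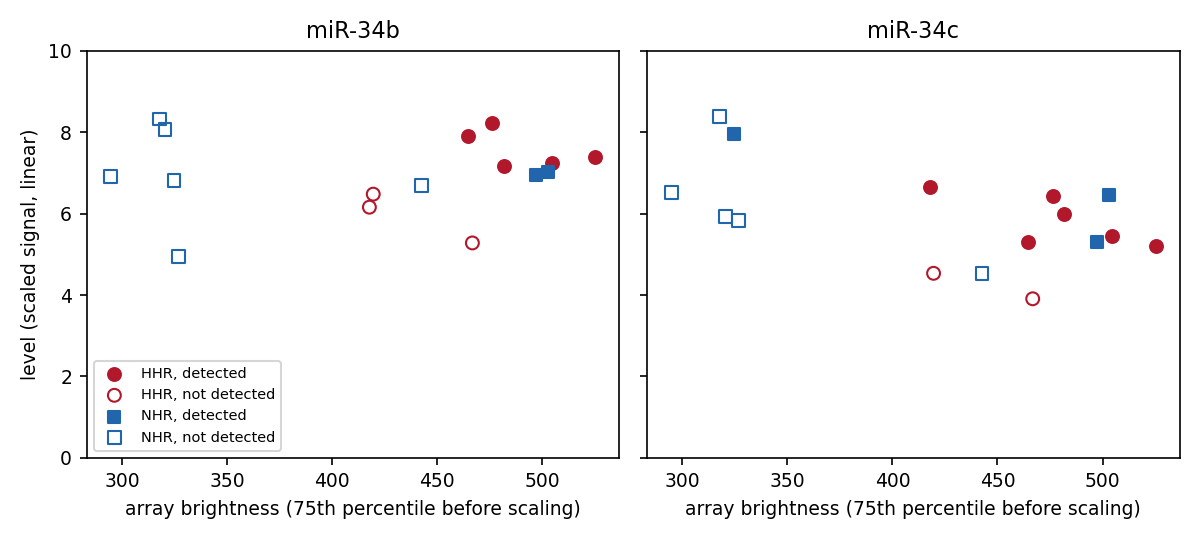
Level of miR-34b (left) and miR-34c (right) on each array (vertical axis, scaled signal, linear) against array brightness (horizontal axis, 75th percentile of signal before scaling). Filled symbols mark arrays on which the scanner flagged the miRNA as detected. For miR-34b they gather at the bright end. For miR-34c they span 324.7 to 525.2 and overlap the arrays without a flag, 294.7 to 466.8. The levels of the strains overlap.

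The other arms gave no usable signal. miR-34b* and miR-34c* were detected on no array, with levels of -1.09 to 2.08 and -3.48 to -0.86. miR-34a*, the partner arm of miR-34a, was also detected on no array, at -0.26 to 1.89 in HHR and -0.47 to 1.96 in NHR. Values at or below 0 arise where a spot is no brighter than its background. The seed relatives miR-449a (-0.021 to 2.66) and miR-449c-5p (-2.22 to -0.30) were likewise detected on no array. A level below the lowest that the array can detect is not shown to be absent.

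No sex difference in the family passed the test. In males miR-34a averaged 83.1 and in females 88.2 (n = 8 each, both strains together), a log2 difference of -0.070 ± 0.048 (SE) that did not pass the limma test (adjusted p = 0.887, 95% interval -0.17 to 0.034). miR-34b averaged 6.75 in males and 7.19 in females (limma adjusted p = 0.970), and miR-34c 5.66 in males and 6.14 in females (limma adjusted p = 0.970). The interaction did not pass for miR-34b (limma adjusted p = 0.929) or miR-34c (limma adjusted p = 0.954). miR-34b reached the filter of at least 4 arrays only with the HHR females, flagged on 4 of 4 arrays against 1 of 4 in each other group. HHR females also had its highest group mean, 7.67, so the filter and its sex and interaction contrasts were not independent. With its signal near background as well, these contrasts cannot decide whether miR-34b differs. For background, 0% of the 233 tested miRNAs passed for sex and 0% for the interaction by limma, with 23 for sex and 9 for the interaction at an unadjusted p below 0.05. The smallest p in the sex contrast belonged to miR-421* (-0.23 ± 0.047, limma adjusted p = 0.0501) and in the interaction to miR-423* (0.40 ± 0.13, limma adjusted p = 0.929).

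With the reported scaling, none of the other miRNAs listed as induced or matured through p53 was called higher in HHR. Of 12 listed, 10 were on the array and 6 were tested, and 0 of these were higher and 6 lower in HHR. Over all tested miRNAs 9.01% were called higher and 45.5% lower. The median log2 difference of the 6 was -0.12, beside -0.11 for all tested miRNAs. miR-192, which p53 induces and which is abundant in liver, kidney and gut, differed most, at 6.64 ± 0.662 in HHR against 11.7 ± 0.991 in NHR hearts (SD, n = 8 each, log2 difference -0.82 ± 0.067, limma adjusted p = 3.45e-07). It was a dim signal, flagged as detected on 6 HHR and 8 NHR arrays. Its HHR mean was close to that of miR-34b (6.98), so the size of the difference is uncertain. The others differed by less. miR-143 (-0.12 ± 0.020) and miR-145 (-0.13 ± 0.030), a smooth muscle pair whose maturation p53 promotes, had limma adjusted p of 2.45e-04 and 0.00237. miR-103 (-0.12 ± 0.022) and miR-16 (-0.11 ± 0.028) had 9.00e-04 and 0.00687. With the 75th percentile taken over all probes, 5 of the 6 were instead called higher and 1, miR-192, lower. Under that scaling 134 of the 233 tested miRNAs were called higher. The median log2 difference was then 0.16 for the 6 and 0.17 for all tested miRNAs. The direction of the 5 small differences thus rests on the scaling. miR-192 was lower under each of the 5 scalings compared.

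Markers of other cells moved with strain in part, and their part in the miR-34a difference was not tested. Their counts of lower calls stand beside 45.5% of all tested miRNAs called lower in HHR. All 10 epithelial markers, which are miR-449a, miR-449c-5p, 5 miRNAs of the miR-200 family, miR-375, miR-203 and miR-205, were detected on no array. With negative levels counted as 0, as in all sums here, their summed level was 0.31 to 3.34 in HHR and 0 to 4.85 in NHR. The erythroid miRNAs miR-144 and miR-451 summed to 202.5 to 313.1 in HHR and 212.7 to 337.9 in NHR, with 0 of 2 called. The leukocyte list summed to 93.8 to 108.9 in HHR and 111.9 to 150.6 in NHR, with 2 of 3 tested members lower, miR-150 and miR-223. The endothelial miR-126 and miR-126* summed to 982.2 to 1096.4 in HHR and 1178.5 to 1294.9 in NHR, both called lower. The liver list, miR-122, miR-192 and miR-194, summed to 7.58 to 10.5 in HHR and 14.9 to 18.1 in NHR. Its hepatocyte miRNA, miR-122, was detected on no array and miR-194 on 1. The only tested member, miR-192, was called lower and is the same miRNA as in the p53 list. The brain list, in which miR-9 and miR-124 were detected on no array, summed to 62.1 to 70.2 in HHR and 63.5 to 72.8 in NHR, with 1 of 2 tested members lower. The heart muscle list summed to 11727 to 13202 in HHR and 12502 to 14163 in NHR. Of its 6 tested members 4 were called lower in HHR, miR-133b, miR-208*, miR-208b-3p and miR-499, and the median log2 difference of the list was -0.14. miR-499 differed by -0.28 ± 0.027 (SE, limma adjusted p = 1.80e-06). No member of any list was called higher in HHR, though this rested on the scaling. With a percentile over all probes, miR-144, miR-451, miR-128 and 4 of the 6 tested heart muscle miRNAs were called higher instead. These calls stand beside 134 of all 233 tested miRNAs called higher under that scaling. There miR-126 and miR-126* had positive differences that did not pass. miR-150, miR-223, miR-192 and miR-219-5p had negative differences under all 5 scalings.

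The miRNAs whose profile over the 16 arrays lay nearest to that of miR-34a were miR-338, miR-378, miR-378*, miR-218 and miR-598-3p. Likeness was the root mean square distance between log2 profiles, each centred on its own mean. It was 0.29 for miR-338, 0.30 for miR-378, 0.31 for miR-378* and miR-218 and 0.32 for miR-598-3p, beside a median of 0.55 over the 230 tested miRNAs outside the family. For scale, the profile of miR-34a departed from its own mean by 0.49. All 5 had every HHR array above every NHR array, as had 3% of all tested miRNAs. Their log2 differences were 0.57, 0.41, 0.37, 0.38 and 0.37 in the order named, smaller than that of miR-34a. The 5 were picked for likeness to a profile that itself separates the strains. Their separation and differences therefore follow largely from the choice and carry no test. With profiles also divided by their SD, 4 of the 5 stayed among the nearest, and miR-338 gave way to miR-675*. miR-338 and miR-598-3p were detected on 14 and 12 arrays. With a normexp background the differences of miR-338, miR-218 and miR-598-3p turned negative, while those of miR-378 and miR-378* stayed positive.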

How the data were processed

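Total RNA (100 ng per animal, per the labels' protocols) was labelled with Cy3 and hybridised to Agilent rat miRNA arrays. The authors deposited scanner output in which, per the file headers, Agilent Feature Extraction 10.7.3.1 gave background-subtracted intensity values on a linear scale and detection flags (other values, 0 or 1), without scaling between arrays. A second file that the authors deposited holds log2 values. How its background, scaling and centring were set stays unknown here. Its columns correlated with the matching arrays' median-pixel signal on the log2 scale at r = 0.998 to 0.999 and had column medians of 6.13 to 6.15. The submitters' processing notes name limma.

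Control spots and outliers were dropped and each probe's spots averaged. Arrays were scaled to their 75th percentile among 258 probes that were well above background throughout (most spots flagged so), and the probes of a miRNA averaged. Values were raised to a floor of 1.92 before log2. miRNAs flagged as detected on at least 4 arrays were tested (233; 186 on all arrays). limma 3.58.1 in R 4.3.3 fitted 1 mean per group, with Benjamini-Hochberg adjustment over the 233 miRNAs at 0.05. No spot was saturated.

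The members, lists and tests were chosen with earlier results of these data known. Named miRNAs were the family, its partner arm and seed relatives, up to 5 called members of the p53 list, the 5 nearest profiles, and the smallest p of the sex and interaction contrasts. Marker lists were named in full or by their defining members. On the arrays miR-15a, miR-605, miR-486 and miR-155 had no row under these names. Alternatives covered the signal, background, scaling, probe summary, filter, floor, moderation, slide, brightness, replicate number and each array. The limma step was tested on simulated data. Per the design text, each array is a different animal. The reported fit treated the animals as unpaired. Of 16 same-numbered pairs that shared a strain or a sex, 9 correlated above 0.1 in their deviations from the group means (range -0.22 to 0.53). Replicates 1 and 2 were on slide 1 and replicates 3 and 4 on slide 2. Animals with the same number thus also shared a slide, and the source of these correlations was not tested.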

Additional observations from a re-analysis of the deposited data

Results flagged for a closer look

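Among the 4 HHR males, miR-34a was highest in replicate 4, at 6.89 on the log2 scale, apart from the other 3 at 6.70 to 6.72. This array was also the brightest of its group before scaling, at 504.6 against 417.7 to 466.8. Without it the log2 strain difference was 0.93.

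Array brightness was highest in NHR female 3, at 502.9, against 320.4 to 326.8 for the other NHR females. Its miR-34a level, 59.1, lay within the 55.4 to 61.5 of those animals. Chance marks about 1 in 20 such groups, and 16 were examined.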

How the results depend on the processing

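The log2 difference of miR-34a kept its direction under all 18 alternatives and 16 fits without 1 array (0.93 to 0.98 over those fits). The difference stayed at 0.96 with the floors, filters, moderation and blocks, which did not change the miR-34a values. It was 0.43 with a normexp background, 1.06 with quantile normalization, 1.09 with median centring, 1.24 with a percentile over all probes, 1.30 without scaling and 0.63 in the authors' deposited table. The normexp offset of 50 is added to every spot and shrinks log ratios by construction. The cause of the other shifts was not tested.

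miR-34b differed by 0.47 with the total gene signal, -0.23 with normexp, 0.24 with quantile normalization, 0.29 with a percentile over all probes and 0.35 without scaling, and miR-34c by 0.37 with the total gene signal and 0.12 without scaling. Over single arrays left out they were -0.064 to 0.054 and -0.29 to -0.14.

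Of the miRNAs tested, 127 were called between strains (83.5% lower in HHR). Counts were 70 with the total gene signal (51.4% lower), 48 without scaling (20.8%), 15 in the authors' deposited table (13.3%), 37 and 47 within slides 1 and 2, 74 with brightness as a covariate, and 106 to 128 over arrays left out. The share of lower calls was 44.1% with quantile normalization, 37.9% with median centring, 13.5% with a percentile over all probes and 98.8% with normexp.

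For sex, 0 were called as reported, 3 among miRNAs detected on all arrays, and 0 to 10 over arrays left out, 10 without NHR male 1, 3 without HHR male 3, 2 without HHR male 4 and 1 each without NHR female 1 or NHR male 4. No sex or interaction test of miR-34a, miR-34b or miR-34c passed under any setting in which it was run (adjusted p from 0.451 to 1). miR-34b and miR-34c were not tested among miRNAs detected on all arrays.

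With the replicate number as a block, the pairing left the miR-34a difference at 0.96, called 124 miRNAs between strains and 1 for sex. By pairing, 4 of 16 animals correlated best with an animal of their own number. The brightness difference of 91.2 did not pass within slide 1 (106.4) or slide 2 (76.0), with 4 arrays against 4, and ranged from 79.2 to 109.0 over arrays left out. Signal over background limits miR-34b, miR-34c and all 3p arms.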
